A study of Mus musculus with 11 samples.

Results

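Pools of fasted mouse gastrocnemius, a calf muscle, were sorted by their level of Trim63, and the pools with much Trim63 mRNA were compared with those with little. Of 11 RNA-seq libraries in all, 8 came from the 3 groups that held both kinds of pool, and of these 5 were high-Trim63 and 3 low-Trim63. A pool was high when Trim63 reached 1500 CPM (the gene's count scaled to a common library size, here the raw library total), and low when it was under that limit. Membership was thus chosen by a measured value, the Trim63 level itself. The 3 groups were ZEB1 knockout (floxed ZEB1 alleles with HSA-Cre), ZEB1 control (floxed ZEB1 alleles alone) and ZEB2 control (floxed ZEB2 alleles alone). Every mouse had fasted for 36 h, and each library held 2 mice, per the series design text. HSA-Cre is driven by the skeletal actin promoter and so cuts in muscle fibres, while other cells of whole muscle keep the gene. No group carried Cre without floxed alleles. The labels used here name no strain, age or sex. The ZEB2 knockout group (floxed ZEB2 alleles with HSA-Cre), whose 3 pools all lay above the limit, stayed out of the comparison.

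Trim63 (MuRF1) and Fbxo32 (atrogin-1) are muscle E3 ubiquitin ligases that mark proteins for the proteasome, and both mRNAs are standard markers of muscle wasting. In fasting, low insulin releases FoxO transcription factors into the nucleus, where they switch on ubiquitin ligase and autophagy genes, while glucocorticoids act on some of the same promoters. Breakdown of contractile and other proteins then frees amino acids for the rest of the body.

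The promoter of the gene that sorts the pools is shown because it carries sites for both of those signals side by side. The 250 bases before the Trim63 start (RefSeq, GRCm38.p6, chr4:134314870-134315119, plus strand) are printed 5′ to 3′. The capitals mark a glucocorticoid receptor half-site (TGTTCT) 200 to 195 bases before the start, directly followed by a FoxO site (TGTTTAC) at 194 to 188.
Trim63: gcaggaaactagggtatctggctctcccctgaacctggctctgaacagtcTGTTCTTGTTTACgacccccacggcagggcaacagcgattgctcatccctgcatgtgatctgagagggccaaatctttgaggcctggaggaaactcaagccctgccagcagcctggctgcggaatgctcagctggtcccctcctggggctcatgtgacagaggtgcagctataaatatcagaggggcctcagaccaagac
Searched on both strands of windows of that length, where the motifs do not overlap each other in Trim63, the FoxO letters occurred in 2.05% of 487 promoters of genes called higher in the comparison described next, in 4.13% of 121 promoters of genes called lower and in 2.32% of 14629 promoters of all genes tested. The half-site letters occurred in 11.5%, 9.92% and 11.3% of the same promoters. A match is only a run of letters, and no binding was measured.

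Trim63 (ENSMUSG00000028834.13, GRCm38 chromosome 4, 134315120 to 134329629, plus strand) chose the pools, so its levels are a description and carry no test. It stood at 4813 CPM in ZEB1_control 3, at 4645 CPM in ZEB1_KO 1, at 2957 CPM in ZEB1_KO 3, at 2205 CPM in ZEB2_control 1 and at 3106 CPM in ZEB2_control 2. In the low pools it stood at 858 CPM in ZEB1_control 2, at 971 CPM in ZEB1_KO 2 and at 986 CPM in ZEB2_control 3. The pools nearest to the limit were both ZEB2 controls, at 2205 CPM inside it and 986 CPM outside it. Within a group the lowest high pool exceeded the low pool 5.61-fold in ZEB1 controls, 3.04-fold in ZEB1 knockouts and 2.24-fold in ZEB2 controls. The 3 low pools thus sat close together while the high pools spread, and high and low pools occurred with and without the ZEB1 knockout.

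**Figure D1:**
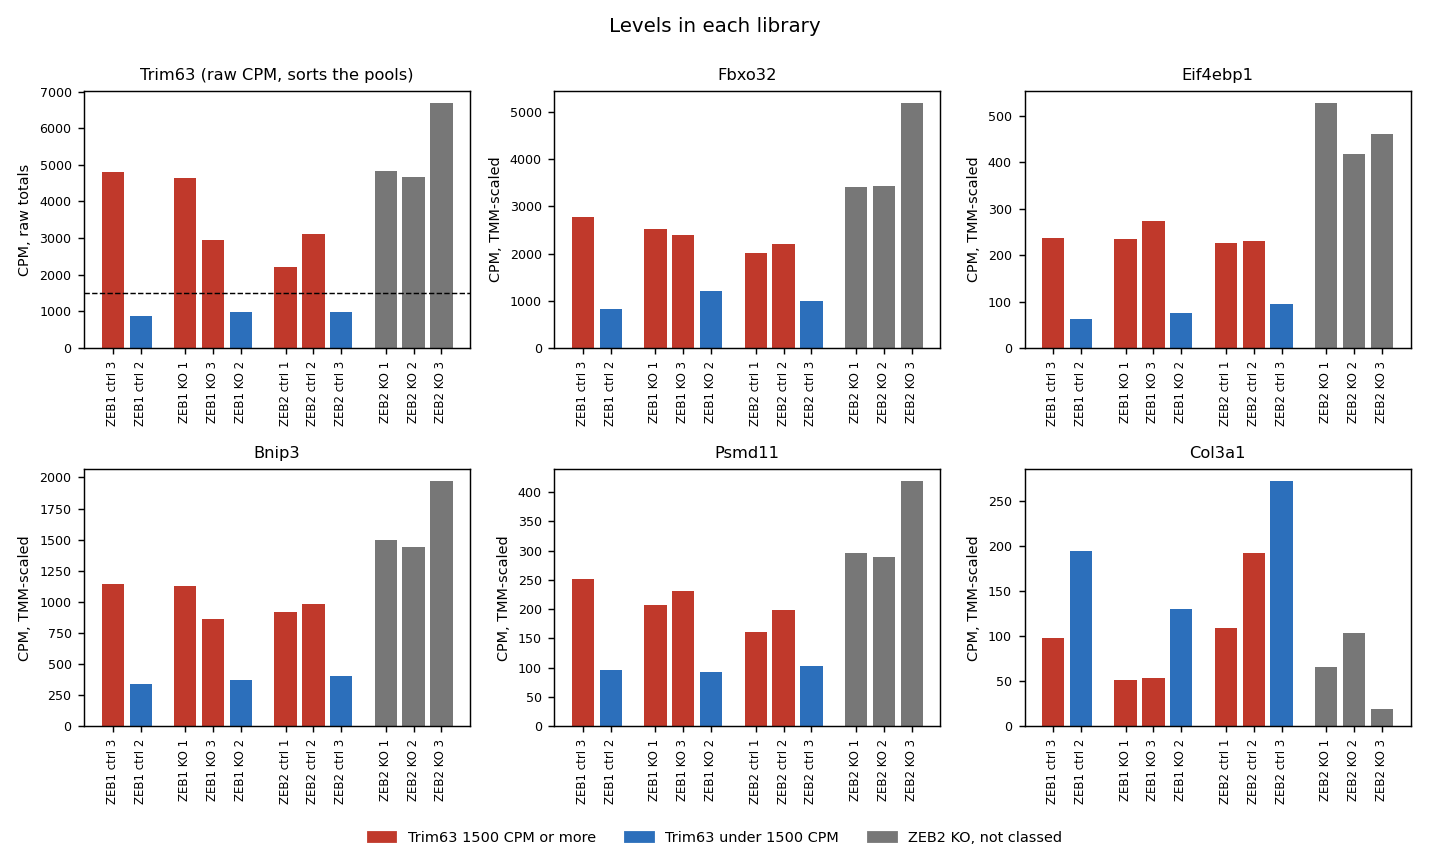
Bars give the level of 6 genes in each of the 11 libraries, in CPM of raw totals for Trim63 and in TMM-scaled CPM for the others, with high-Trim63 pools in red, low-Trim63 pools in blue and unclassed ZEB2 knockout pools in grey; the dashed line is the limit of 1500 CPM. Fbxo32, Eif4ebp1, Bnip3 and Psmd11 were higher in each red bar than in each blue bar, and Col3a1 was lower in each red bar than in the blue bar of its own group.

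The libraries were alike in depth, with 28.2 to 33.3 M counts in high-Trim63 pools and 27.3 to 36.0 M in low-Trim63 pools, and the mitochondrial genome took 13.2% to 17.0% of counts in high-Trim63 pools and 14.0% to 18.0% in low-Trim63 pools. Malat1, a nuclear RNA watched as a sign of RNA quality, was higher in high-Trim63 pools by 0.59 on the log2 scale (SE 0.10, edgeR adjusted p = 0.0221), the only one of 7 such RNAs called, and its part in the results was not tested. Genes of the myofibre itself were abundant in every pool: Acta1, skeletal actin, ranged from 23250 to 26045 CPM in high-Trim63 pools and from 24117 to 25079 CPM in low-Trim63 pools. Zeb1, the targeted gene, stood at 29.2 to 31.3 CPM in the 3 ZEB1 knockout pools, against 42.4 and 52.7 CPM in the 2 ZEB1 control pools. Sex moved with the split. Summed Y-linked transcripts (Ddx3y, Uty, Kdm5d and Eif2s3y) reached 165, 217, 121 and 243 CPM in ZEB1_control 3, ZEB1_KO 3, ZEB2_control 1 and ZEB2_control 2, and 0 CPM in ZEB1_KO 1, against 0 CPM in each of the 3 low-Trim63 pools. Xist, made from the inactive X chromosome of females, stood at 157, 462, 0.301, 191 and 0.407 CPM in ZEB1_control 3, ZEB1_KO 1, ZEB1_KO 3, ZEB2_control 1 and ZEB2_control 2, against 413, 409 and 132 CPM in ZEB1_control 2, ZEB1_KO 2 and ZEB2_control 3. ZEB1_control 3 and ZEB2_control 1 thus held both Xist and Y-linked transcripts. In both control groups every high pool held Y-linked transcripts and no low pool did, so sex and Trim63 cannot be told apart there. ZEB1_KO 1 and ZEB1_KO 2 are the only pair of a high and a low pool, in one group, that both lack Y-linked transcripts, and their difference is given beside the main results. All 3 low pools came from different groups, so p-values rest on 1 low pool per group.

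**Figure D2:**
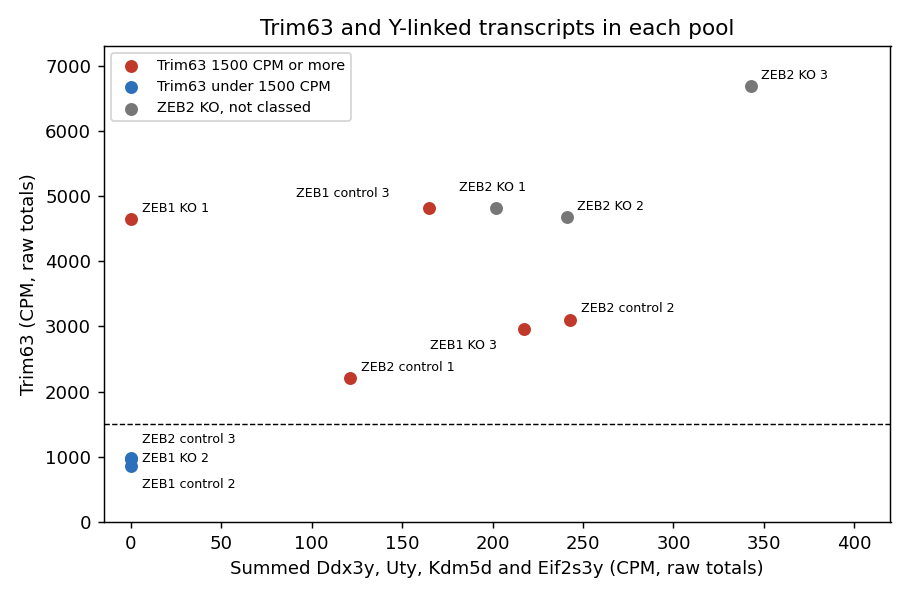
Each point is a library, with summed Y-linked transcripts on the x axis and Trim63 on the y axis, both in CPM of raw totals. The 3 low-Trim63 pools and ZEB1_KO 1, at 4645 CPM of Trim63, share an x value of 0, and the other high pools lie at 121 to 243 CPM.

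With group as a block in the fit, 495 genes besides Trim63 were higher in high-Trim63 pools and 129 were lower (edgeR quasi-likelihood test, Benjamini-Hochberg adjusted p under 0.05). Trim63 included, genes called higher made up 3.12% of the 15903 tested, those called lower 0.811%, and both together 3.93%. The pools were split by a gene measured in the same libraries, and the p-values make no allowance for that choice: the calls list what went with Trim63, not the effect of a treatment. Scaling shifted the balance between directions, from 495 against 129 with TMM to 385 against 270 with raw totals and 354 against 317 with upper-quartile factors. With the summed Y-linked transcripts as a covariate, 262 genes were higher (1.65% of those tested) and 123 lower (0.773%), of which 141 and 31 were shared with the first fit. All 625 genes first called, Trim63 included, kept their direction, in the same libraries that chose them. In the pair without Y-linked transcripts, ZEB1_KO 1 exceeded ZEB1_KO 2 for 494 of the 496 genes called higher, and lay below it for 129 of 129 called lower; over all genes tested these shares were 49.6% and 50.2%. Both libraries are part of the fit that chose the genes, so this count is not independent of the calls. Leaving out ZEB1_KO 2 gave 0 genes in either direction, leaving out ZEB1_control 2 or ZEB1_control 3 gave 5 higher and 0 lower in each case, and leaving out ZEB2_control 2 or ZEB2_control 3 gave 200 and 211 higher and 95 and 63 lower. Without either ZEB1_control pool that group adds nothing to the contrast, so those 2 omissions are nearly the same fit. With group means removed, a principal component holding 46.6% of the variance placed the low pools at -31.8, -32.4 and -20.1 and the high pools at 7.5 to 31.8. Removing the means makes each group's scores sum to 0, so a low pool lies opposite the mean of its high pools by arithmetic. The sign was set so that high pools average above 0.

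Levels from here on are TMM-scaled CPM, and differences are log2, high minus low, with their standard error (SE) from the edgeR fit. Values of the high-Trim63 pools are listed in the order ZEB1_control 3, ZEB1_KO 1, ZEB1_KO 3, ZEB2_control 1 and ZEB2_control 2, and those of the low-Trim63 pools in the order ZEB1_control 2, ZEB1_KO 2 and ZEB2_control 3. All adjusted p-values come from the edgeR test over the 15903 genes, without the Y-linked covariate unless stated. With that covariate, 53 of the 88 called genes that the naming rule picked did not pass. Of all genes tested, 7461 (46.9%) had higher values in high-Trim63 pools and 8442 had lower values, the background for the list counts below. For counts of calls the background is 3.12% called higher, Trim63 included, and 0.811% called lower.

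Most ubiquitin genes and ubiquitin ligases had higher values in high-Trim63 pools. Fbxo32 (ENSMUSG00000022358.7, chromosome 15, 58175879 to 58214932, minus strand), the partner marker of wasting, stood at 2772, 2528, 2403, 2006 and 2212 CPM in high-Trim63 pools and at 824, 1208 and 999 CPM in low-Trim63 pools. High and low pools did not overlap, and Fbxo32 was higher by 1.24 (SE 0.14, edgeR adjusted p = 0.0104). Such a separation, all 5 high pools above all 3 low pools, held for 10.3% of the genes tested, and all 5 lay below all 3 for 6.19%; every high pool lay above the low pool of its own group for 16% and below it for 14.9%. Fbxo32 spread less among the high pools than Trim63 did. Ubb, which supplies free ubiquitin, stood at 2040, 1836, 1753, 1174 and 1842 CPM in high-Trim63 pools, against 906, 1028 and 810 CPM in low-Trim63 pools. It did not overlap and was higher by 0.94 (SE 0.15, edgeR adjusted p = 0.0200), and ZEB2_control 1 was the lowest of the high pools. Ubr4, a large E3 ligase of the N-degron pathway, was higher by 0.74 (SE 0.10). Of the 29 ubiquitin ligase and ubiquitin genes tested besides Trim63, 23 had higher values, 5 passed the test as higher and 0 as lower, with a median of 0.42 against -0.028 over all genes tested. Those 5 included Fbxo31, another F-box protein, at 0.91 (SE 0.18), a gene picked out after its values were seen. With the Y-linked covariate the list's median was 0.23 and 4 passed. Ubr4 and Ubb did not pass in that fit (edgeR adjusted p = 0.0590 and 0.0996).

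Of 35 proteasome subunit and assembly genes, 34 had higher values in high-Trim63 pools, against 46.9% of all genes tested. Of the list 18 passed the edgeR test as higher, 51.4% against 3.11% of all genes besides Trim63, with 0 called lower. Their log2 differences were moderate, from 0.55 for Psmc1 to 1.12 for Psmd11 among the genes called, and the median over the list was 0.58. Psmd11, a lid subunit of the 19S regulatory particle, stood at 251, 207, 231, 161 and 199 CPM in high-Trim63 pools and at 95.7, 92.9 and 103 CPM in low-Trim63 pools, without overlap (SE 0.14, edgeR adjusted p = 0.0108). Psmd4, the ubiquitin receptor of the 19S particle, was higher by 0.88 (SE 0.14), Psmc2, one of its ATPases, by 0.73 (SE 0.11) and Psmd12, a lid subunit, by 0.68 (SE 0.11). Subunits of the 20S core were called too, such as Psmb1 at 0.58 (SE 0.09). With the Y-linked covariate the median was 0.34 and 1 gene of the list passed, and between the pools ZEB1_KO 1 and ZEB1_KO 2, which lack Y-linked transcripts, the median was 0.37. The count of proteasome genes called was 0 without ZEB1_KO 2, ZEB1_control 2 or ZEB1_control 3, 6 without ZEB2_control 2 and 4 without ZEB2_control 3.

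Autophagy and lysosome genes were higher in part. Of 35 tested, 28 had higher values, 11 passed the test as higher and 0 as lower, with a median of 0.16; with upper-quartile factors 22 had higher values and 8 passed. Bnip3 (ENSMUSG00000078566.8, chromosome 7, 138890836 to 138909519, minus strand), a mitophagy receptor and FoxO target, stood at 1144, 1126, 863, 915 and 980 CPM in high-Trim63 pools and at 336, 373 and 400 CPM in low-Trim63 pools. Each high pool held more than 2 times the level of each low pool, and the difference was 1.45 (SE 0.14, edgeR adjusted p = 0.00548). Gabarapl1, an Atg8-family protein of the autophagosome membrane, stood at 344, 603, 223, 215 and 218 CPM in high-Trim63 pools, against 103, 112 and 74.7 CPM in low-Trim63 pools, higher by 1.72 (SE 0.32, edgeR adjusted p = 0.0385). ZEB1_KO 1 was the highest pool for it. Among cargo receptors and enzymes, Sqstm1 (p62) was higher by 0.95 (SE 0.11), Map1lc3b (LC3B) by 0.91 (SE 0.15) and Ctsl, the lysosomal protease cathepsin L, by 1.15 (SE 0.15). With the Y-linked covariate 7 of the list passed, and the count was 0 without ZEB1_KO 2, ZEB1_control 2 or ZEB1_control 3, 6 without ZEB1_KO 1, 7 without ZEB2_control 1, 5 without ZEB2_control 2 and 3 without ZEB2_control 3.

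Retreg1, an endoplasmic reticulum-phagy receptor outside that list, was among the most altered abundant genes. It stood at 2253, 2767, 1810, 1278 and 1813 CPM in high-Trim63 pools and at 434, 615 and 491 CPM in low-Trim63 pools, higher by 1.94 (SE 0.21, edgeR adjusted p = 0.0104). Npc1, which exports cholesterol from lysosomes, ranged from 244 to 457 CPM in high-Trim63 pools and from 73.9 to 100 CPM in low-Trim63 pools, higher by 1.87 (SE 0.22). Slc15a4, a lysosomal histidine and peptide transporter, was higher by 1.63 (SE 0.28).

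Of 27 FoxO and insulin pathway genes 21 had higher values, 5 passed the edgeR test as higher and 0 as lower, with a median of 0.49. The share called higher was 18.5%, against 3.11% of all genes besides Trim63. Eif4ebp1 (ENSMUSG00000031490.6, chromosome 8, 27260329 to 27276674, plus strand) encodes 4E-BP1, the translation repressor that mTOR inactivates. It stood at 237, 235, 274, 226 and 230 CPM in high-Trim63 pools, against 61.5, 74.2 and 94.1 CPM in low-Trim63 pools, higher by 1.64 (SE 0.14, edgeR adjusted p = 0.00548). The 5 high pools lay within a narrow band, far tighter than for Trim63. Foxo3 itself was higher by 1.07 (SE 0.20, edgeR adjusted p = 0.0278), the insulin receptor gene Insr by 0.49 (SE 0.10) and the kinase gene Akt1 by 0.86 (SE 0.11). The fifth was Gadd45a, a stress-inducible gene of denervated and fasted muscle, at 1.03 (SE 0.23). Foxo1 averaged 98.6 ± 44.0 CPM in high-Trim63 pools and 46.8 ± 19.4 CPM in low-Trim63 pools (SD, n = 5 and 3) and did not pass the edgeR test (adjusted p = 0.158); it was picked out after its values were seen.

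Glucocorticoid-responsive genes had higher values in 22 of 24 cases, with a median of 1.04, and 3 passed the test as higher. That was 12.5% of the list, against 3.11% of all genes besides Trim63. Fkbp5, the co-chaperone that glucocorticoids induce, stood at 247, 213, 187, 134 and 163 CPM in high-Trim63 pools and at 78.9, 105 and 73.2 CPM in low-Trim63 pools, higher by 1.15 (SE 0.15, edgeR adjusted p = 0.0108). Klf9 was higher by 0.67 (SE 0.15), and Foxo3 belongs to this list too. Glul, glutamine synthetase, differed by 1.57 (SE 0.33) and did not pass (edgeR adjusted p = 0.0520). The list's median was largest between the ZEB1 control pools, at 1.75, with 0.67 within the ZEB1 knockout group and 0.28 within the ZEB2 control group, and the difference between lines passed the test for 0 genes of any list.

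Translation factors had higher values in 22 of 27 cases, and 5 passed as higher, 18.5% against 3.11% of all genes besides Trim63. The 5 were Eif4ebp1, Eif3a at 0.82 (SE 0.13), Eif1 at 0.53 (SE 0.09), Eif4a2 at 0.52 (SE 0.10) and Eif4a1 at 0.65 (SE 0.13), the last picked out after its values were seen. Of 47 cytosolic ribosome genes 0 passed in either direction, and their median of 0.060 turned to -0.035 with upper-quartile factors. Atf4, the transcription factor of the integrated stress response, was higher by 0.81 (SE 0.13, edgeR adjusted p = 0.0186), and so were Dnajb9 and Atf6 of the endoplasmic reticulum stress response, the only members called of 23. Of the antioxidant and NRF2 list, Gclm, Sod1 and Nfe2l2 were called higher and Gsta4 lower of 31. With the Y-linked covariate 0 of that list passed in either direction. Snhg12 and Snhg1, small nucleolar RNA host genes, were higher by 1.70 (SE 0.26) and 1.65 (SE 0.22).

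**Figure D3:**
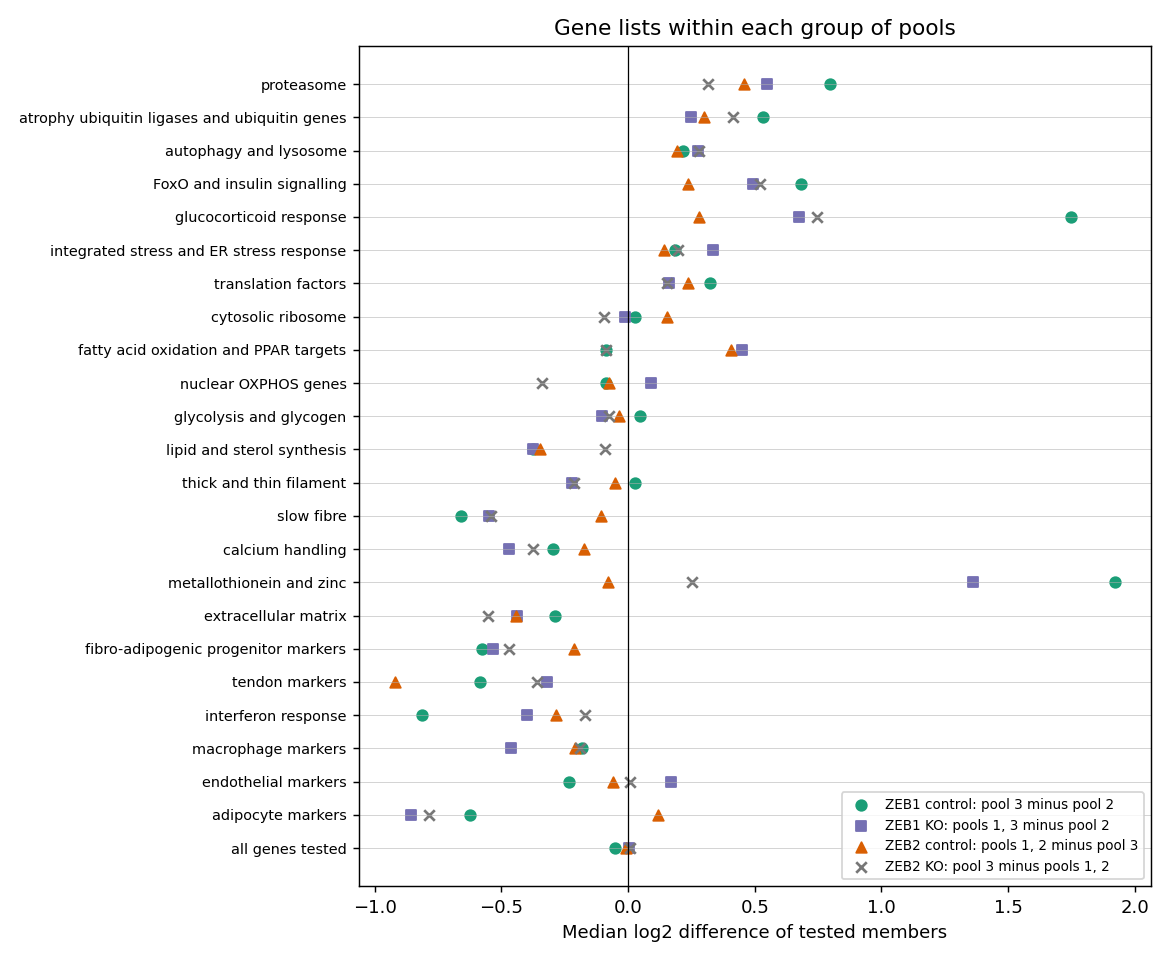
Points give the median log2 difference of the tested members of 23 gene lists and of all genes in 3 groups of high minus low pools, and crosses give the median for ZEB2 knockout pool 3 minus pools 1 and 2. Proteasome, ubiquitin ligase, autophagy, FoxO, glucocorticoid, stress and translation factor lists lie right of 0 in all 4, and the extracellular matrix, fibro-adipogenic and interferon lists left of 0 in all 4.

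Fuel-handling genes changed in a few named steps. Pnpla2, the first lipase of triglyceride breakdown, was higher in every high pool, at 604, 733, 673, 657 and 505 CPM, against 274, 298 and 265 CPM in low-Trim63 pools, a difference of 1.17 (SE 0.12, edgeR adjusted p = 0.00718). Ppard, a nuclear receptor of fatty acid use, was higher by 0.91 (SE 0.19) and Eci2, a fatty acid oxidation enzyme, by 0.66 (SE 0.14), which with Pnpla2 were the only members of the 38 called. Pdk4, the brake on pyruvate oxidation, ranged from 2811 to 4432 CPM in high-Trim63 pools and from 1185 to 2747 CPM in low-Trim63 pools, did not overlap and did not pass (edgeR adjusted p = 0.0965). Acss1, which makes acetyl-CoA from acetate in mitochondria, was higher by 1.72 (SE 0.20). Lipid and sterol synthesis genes had lower values in 18 of 22 cases: Elovl6, a fatty acid elongase, was lower at -0.87 (SE 0.17) while Acacb, which makes malonyl-CoA, was higher at 0.71 (SE 0.11). Of 48 nuclear OXPHOS genes and 13 genes of the mitochondrial genome, 0 were called.

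Of the thick and thin filament genes 3.12% were called higher, about the 3.11% over all genes besides Trim63. Flnc, filamin C of the Z disc, was the only one called of 32 thick and thin filament genes, higher by 0.87 (SE 0.15), and Myh4, Acta1 and Tnnt3 were not called. Slow-fibre genes had lower values in 14 of 16 cases, and the single call (6.25% of the list) was the stretch-responsive Ankrd2, higher by 0.97 (SE 0.22). Calcium-handling genes had lower values in 18 of 21 cases and 0 were called, against 5 called lower with upper-quartile factors, 6 with raw totals, 7 with DESeq2, 6 with no filter on low counts, 4 at a mean of at least 5 CPM and 4 with the Y-linked covariate. Among regulators, Mef2c was lower at -0.82 (SE 0.14) and Mef2a higher at 0.46 (SE 0.09), while Runx1, known to increase in denervated muscle, stood at 5.19 to 11.8 CPM in high-Trim63 pools, against 2.64 to 3.09 CPM in low-Trim63 pools, higher by 1.44 (SE 0.26). Ache, acetylcholinesterase, was lower at -0.76 (SE 0.13). Of 21 denervation and neuromuscular junction genes 7 had higher and 14 lower values, with a median of -0.13. Runx1 and Gadd45a were the 2 called higher, 9.52% against 3.11% of all genes besides Trim63, and Ache the 1 called lower. With the Y-linked covariate 0 of that list passed as higher and 1 as lower. Mybph, a myosin-binding protein, stood at 89.9, 153, 84.5, 61.9 and 78.3 CPM in high-Trim63 pools, against 186, 334 and 114 CPM in low-Trim63 pools, lower at -1.10 (SE 0.22, edgeR adjusted p = 0.0383), with ZEB1_KO 1 above ZEB2_control 3.

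Genes of connective tissue had mostly lower values. Of 37 extracellular matrix genes, 33 had lower values, 8 passed the edgeR test as lower and 0 as higher, with a median of -0.38. Over all genes tested 0.811% were called lower. Col3a1 (ENSMUSG00000026043.18, chromosome 1, 45311538 to 45349706, plus strand), fibrillar collagen III, stood at 98.0, 51.2, 54.1, 109 and 193 CPM in high-Trim63 pools and at 194, 131 and 272 CPM in low-Trim63 pools, lower at -1.06 (SE 0.18, edgeR adjusted p = 0.0219). Its levels overlapped between groups, but each high pool lay below the low pool of its own group. Col6a1 was lower at -0.68 (SE 0.10) and Col6a2 at -0.85 (SE 0.15). Fibro-adipogenic progenitor markers had lower values in 18 of 18 cases and 4 passed (Pcolce, Lum, Pi16 and Cd34). Scx, a transcription factor of tendon cells, was the call among 11 tendon markers, 11 of them lower. Only 2 of the tendon markers had a mean of at least 5 CPM. Summed tendon markers ran from 47.5 to 137 CPM in high-Trim63 pools and from 59.0 to 198 CPM in low-Trim63 pools. With the Y-linked covariate 12 of the 18 fibro-adipogenic markers had lower values and 1 passed, with a median of -0.29 against -0.44 without it, and 26 of the 37 matrix genes had lower values and 6 passed. The summed level of fibro-adipogenic markers ran from 1909 to 2978 CPM in high-Trim63 pools and from 2400 to 3006 CPM in low-Trim63 pools, and the count of matrix genes called was 0 without ZEB1_KO 2, ZEB1_control 2 or ZEB1_control 3 and 3 without ZEB2_control 3. Fewer such cells and less RNA per cell cannot be told apart in bulk muscle.

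Among other lists, 18 of 20 macrophage markers had lower values and 0 were called, with a median of -0.38, and of 18 endothelial markers 8 had higher and 10 lower values, 0 called. With the Y-linked covariate 13 of the 20 macrophage markers had lower values, with a median of -0.13. Summed macrophage markers ran from 219.6 to 332 CPM in high-Trim63 pools and from 294 to 369 CPM in low-Trim63 pools. Of 29 interferon response genes 28 had lower values, with a median of -0.49. Stat2 and Gbp3 were called lower, as were 0.811% of all genes tested. With the Y-linked covariate the interferon median was -0.68 and 0 of the list passed. The 14 adipocyte markers had a median of -0.69. Within groups the median was -0.63 in ZEB1 control and -0.86 in ZEB1 knockout but 0.12 in ZEB2 control. With the Y-linked covariate it was -0.26, and 0 adipocyte markers passed as lower. Adipocyte genes Plin1 and Retn were lower, at -1.12 (SE 0.25) and -1.38 (SE 0.26), and Plin4, also made in muscle, was higher at 0.71 (SE 0.16). Whether other cells had a part in the lower matrix values was not tested.

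The other leading genes had diverse roles. Il6ra, the interleukin-6 receptor alpha chain, stood at 111, 90.5, 39.8, 52.0 and 64.2 CPM in high-Trim63 pools and at 13.2, 16.3 and 20.2 CPM in low-Trim63 pools, higher by 2.09 (SE 0.39, edgeR adjusted p = 0.0432). Sap30, a subunit of the Sin3 histone deacetylase complex, was higher by 1.90 (SE 0.39), Wdr62, a spindle pole protein, by 1.81 (SE 0.23), and Napb, a vesicle fusion factor, by 1.64 (SE 0.21). On the lower side, Pde4a, a cyclic AMP phosphodiesterase, differed by -1.30 (SE 0.25), Angpt1, the ligand of the endothelial receptor Tie2, by -1.03 (SE 0.19) and Ostn, the muscle hormone musclin, by -1.02 (SE 0.22). Plekha6, Stxbp4, Mettl11b, Mafa, Otub2, Slc4a4 and Sema6c made up the rest of the 12, between -1.29 and -1.01. Clock genes Rora and Cry2 were higher by 1.12 (SE 0.14) and 1.51 (SE 0.26), while Nr1d1 differed by -0.01 (SE 0.23). Rora and Cry2 were the only calls among 20 clock genes, of which 11 had higher and 9 lower values. The clock median was 0.057, with 0.29 in ZEB1 control, -0.20 in ZEB1 knockout and 0.36 in ZEB2 control.

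The metallothioneins Mt1 and Mt2, which bind zinc, followed the split in both ZEB1 groups but not in ZEB2 controls by their values, though the difference between lines passed the test for neither. Mt2 stood at 143, 207, 46.0, 10.9 and 20.9 CPM in high-Trim63 pools and at 9.97, 12.1 and 56.6 CPM in low-Trim63 pools, so both high ZEB2 control pools lay below their low pool. Mt1 stood at 148, 296, 78.5, 27.6 and 46.8 CPM in high-Trim63 pools, against 15.4, 21.9 and 57.9 CPM in low-Trim63 pools. Slc39a14, a zinc importer, was higher in every high pool, at 233, 92.2, 47.7, 57.1 and 161 CPM, against 9.66, 11.7 and 29.9 CPM in low-Trim63 pools, with a difference of 2.78 (SE 0.70) that did not pass (edgeR adjusted p = 0.0933).

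The 3 groups share no library, so their differences can be set side by side. Across 9299 genes with a mean of at least 5 CPM, the log2 difference had a Pearson correlation of 0.65 between ZEB1 control and ZEB1 knockout, 0.64 between ZEB1 control and ZEB2 control, and 0.54 between ZEB1 knockout and ZEB2 control; genes are not independent replicates, and sex runs along the split in ZEB1 control and ZEB2 control. The direction was the same for 73.4%, 74.4% and 67.8% of these genes in the same 3 pairs of groups. A test of the difference between the ZEB2 control and ZEB1 responses called 0 genes in edgeR, and no other tool was run on it. At an unadjusted p under 0.05 it gave 429 genes, fewer than the 795 expected by chance. With 1 low pool in each group it can miss real differences.

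**Figure D4:**
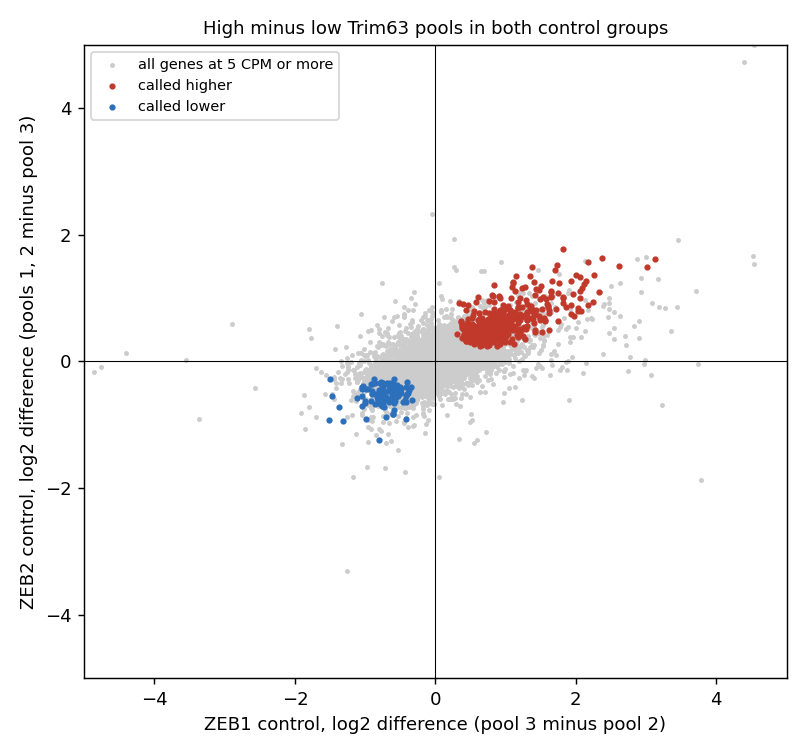
Each point is a gene with a mean of at least 5 CPM, with the log2 difference of high minus low pools in ZEB1 control on the x axis and in ZEB2 control on the y axis; red and blue are genes called higher and lower in the 8 libraries. Both axes hold the libraries that made the calls, and called genes lie in the upper right and lower left.

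The ZEB2 knockout pools entered neither the rule nor the fit, and 1 of them, pool 3, held more Trim63 (6684 CPM) than pools 1 and 2 (4821 and 4672 CPM). Of the 495 genes called higher, 476 (96.2%) were above both other pools in ZEB2_KO 3, against 41.7% of all genes tested, and of the 129 called lower, 117 (90.7%) were below both, against 39.2%. Fbxo32 stood at 5189 CPM in ZEB2_KO 3, against 3402 and 3441 CPM in ZEB2_KO 1 and 2, Bnip3 at 1968, against 1497 and 1439 CPM, and Col3a1 at 19.3, against 65.6 and 103 CPM. Eif4ebp1 was an exception at 460 CPM, between 528 and 419 CPM. Y-linked transcripts stood at 343 CPM in pool 3 and at 202 and 241 CPM in pools 1 and 2, and Xist at 2.98 CPM in pool 3 and at 68.3 and 1.97 CPM in pools 1 and 2. The part of sex in this pattern was not tested. Nuclear OXPHOS genes, not called in the other groups, were lower in ZEB2_KO 3 than in both other pools in 45 of 48 cases. One pool against a pair allows no test.

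**Figure D5:**
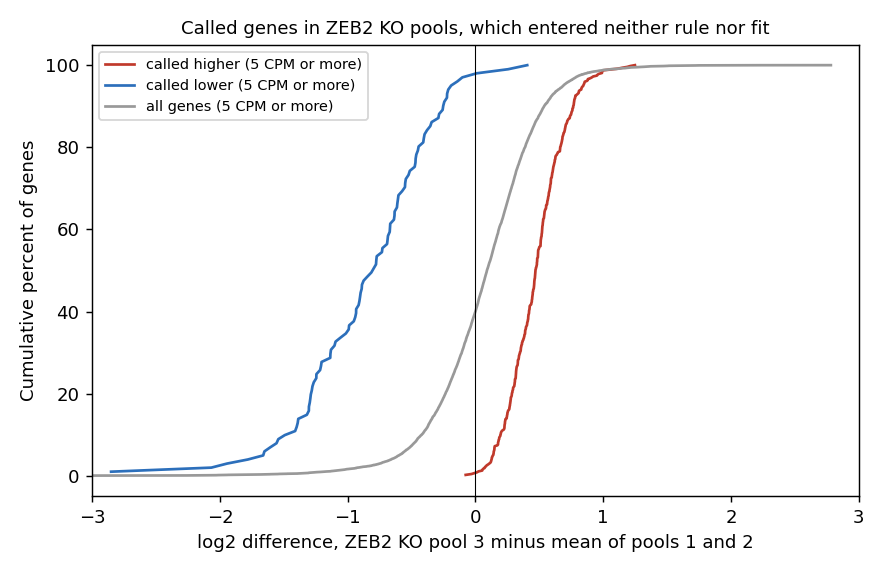
Lines give the cumulative percent of genes with a mean of at least 5 CPM by their log2 difference between ZEB2 knockout pool 3 and the mean of pools 1 and 2, for genes called higher (red) or lower (blue) in the other 3 groups and for all genes (grey). Called-higher genes lie right of the grey line around 0.47 and called-lower genes left of it around -0.73, the medians over all called genes.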

How the data were processed

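RNA was measured in 11 libraries of mouse gastrocnemius. The authors deposited estimated counts for each gene, as unscaled whole numbers. Per the submitters' processing notes, STAR, RSEM and DESeq2 were used with GRCm38; no versions or settings are given. RSEM shares reads among similar genes, so values of near-identical copies are uncertain, and the strand setting is not given in the sources used here. Nothing says that pools were independent beyond the 2 mice in each.

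The 8 libraries were fitted with edgeR 4.0.16 under R 4.3.3 (filterByExpr, minimum count 10 and total 15; TMM; robust quasi-likelihood fit with group and class), which left 15903 of 55385 genes and 99.97% of counts. The threshold was an adjusted p of 0.05. Within-group differences are log2(CPM + 0.5). Coordinates are from GENCODE M21, promoters from RefSeq. The fit was tested on simulated counts in which 200 of 15903 genes were changed. It recovered 66% of the changes of log2 size 1 and 95% of those of log2 size 2, with 14 false calls. The simulated counts held no sex difference and no split by a measured gene, so they do not cover those limits. Replicate libraries differed by far more than counting noise. The members, gene lists and comparisons were chosen with earlier results of these data known. Named genes were, per direction, the 12 called with the largest difference, a mean of at least 5 CPM and agreement in all 3 groups, and up to 4 members of each list. Some genes named by it are not reported here. Alternatives used DESeq2 1.42.0, limma 3.58.1, other scalings, filters, blocks and covariates, and left out each library. Depth differs little, and at least 23421 Trim63 counts per library make counting error small beside the spread of pools for that gene.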

Additional observations from a re-analysis of the deposited data

Results flagged for a closer look

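Among 173 genes checked in the 5 high-Trim63 pools, 7 had 1 pool far from the other 4 by Dixon's test, which flags about 1 in 20 groups by chance. Eif4ebp1 stood at 274 CPM in ZEB1_KO 3, with the others up to 237 CPM, and Jun at 141 CPM in ZEB1_KO 3, with the others up to 57.5 CPM. Gpi1 stood at 1181 CPM in ZEB1_KO 1, with the others up to 1037 CPM, Got2 at 524 CPM, with the others up to 412 CPM, and S100a8 at 1.74 CPM, with the others up to 0.793 CPM. Pde4a stood at 28.5 CPM in ZEB2_control 2, with the others up to 13.6 CPM, and Chad at 8.60 CPM, with the others up to 2.70 CPM.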

How the results depend on the processing

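The comparison gave 495 genes higher and 129 lower. Leaving out 1 library gave 0 to 591 genes higher and 0 to 159 lower: 0 and 0 without ZEB1_KO 2, 5 and 0 without ZEB1_control 2, 5 and 0 without ZEB1_control 3, 211 and 63 without ZEB2_control 3, and 200 and 95 without ZEB2_control 2. In each of these fits every gene of the main calls that was tested kept its sign, but the libraries kept are among those that chose the genes. DESeq2 called 1091 and 443, no filter on low counts 860 and 498, Trim63 as a continuous covariate 996 and 343, and the Y-linked covariate 262 higher. Upper-quartile factors called 317 lower, raw totals 270, a mean of at least 5 CPM 226, and all 11 libraries 35. The ZEB1 groups alone, a fit added after the data were seen, called 1 and 0. With the replicate number as a further block 10 genes were higher and 0 lower. Deviations of same-numbered libraries correlated from 0.149 to 0.551 where both were of one Trim63 class, and from -0.508 to -0.217 otherwise. The sign followed the class, so these values cannot tell whether the numbers pair the pools. The 88 called named genes kept their sign in each of the 22 alternatives in which they were tested. A mean of at least 5 CPM left some of them out. The alternatives reuse the libraries that chose these genes, so a kept sign is no independent support. Of the 88, 53 no longer passed with the Y-linked covariate and 85 no longer passed with the replicate block. Whether depth limited the leading genes was not tested. Sap30 and Wdr62 stood at only 2.22 to 2.96 CPM and 2.26 to 2.51 CPM in low-Trim63 pools. With 1 low pool in each group every call rests on 3 low pools, and sex moved with the split. The cause of these changes was not tested.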

Other observations

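Several non-coding host genes of small nucleolar RNAs, picked out after their values were seen, were higher together with Snhg1 and Snhg12. Gas5 averaged 115 ± 18.4 CPM in high-Trim63 pools and 52.5 ± 9.78 CPM in low-Trim63 pools (SD, n = 5 and 3), a log2 difference of 1.10 (SE 0.13, edgeR adjusted p = 0.0104). Zfas1 averaged 26.7 ± 4.17 CPM in high-Trim63 pools and 12.3 ± 0.721 CPM in low-Trim63 pools, a difference of 1.11 (SE 0.14), and Snhg5 averaged 30.7 ± 4.96 CPM in high-Trim63 pools and 14.5 ± 0.943 CPM in low-Trim63 pools, a difference of 1.09 (SE 0.14).

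Ppargc1a, a coactivator of mitochondrial genes, also picked out after its values were seen, stood at 355 CPM in ZEB1_KO 1 and at 22.4 to 39.5 CPM in the other high-Trim63 pools, against 26.7 ± 3.57 CPM in low-Trim63 pools (SD, n = 3).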
